A study of Mus musculus with 24 samples.

Results

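Aminoacyl-tRNA synthetases attach each amino acid to its matching transfer RNA, the step that sets the reading of the genetic code. The genes described here were 36 of the 36806 genes in the expression table. Of these, 20 encode enzymes of the cytosol and 16, with symbols ending in 2, encode enzymes of the mitochondria. The members were chosen by name and not by a rule on their values, though with earlier results of these data known. The set does not name every enzyme of the family. Each of the 36 symbols was found on exactly 1 row of the table. The tests covered 35 members, since Pars2, the mitochondrial prolyl-tRNA synthetase, stayed below the filter on low values described next to the levels.

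The animals were C57BL mice with the Nr5a2 genotype +/+ (WT) or +/- (HET). Nr5a2 is a nuclear receptor of pancreatic acinar cells, the cells that make digestive enzymes. Caerulein, a cholecystokinin analogue that overstimulates acinar cells, was given as 7 hourly injections of 50 ug/kg to cause mild acute pancreatitis, and pancreas was taken 8, 24 or 48 h after the first injection. Controls received saline. There were 8 groups of 3 mice, each mouse giving 1 poly(A) RNA library of whole pancreas, so 24 libraries in all. The sources used here do not say how the Nr5a2 allele was made, nor the age of the mice. All tissue was whole pancreas, in which fewer cells of a type and less RNA per cell cannot be told apart.

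Cytosolic synthetases charge the tRNAs used by ribosomes in the cytoplasm, where secreted enzymes are made. The acinar cell has one of the highest rates of protein synthesis in the body. In mammals 8 cytosolic members, namely Dars, Eprs, Iars, Kars, Lars, Mars, Qars and Rars, sit in a multisynthetase complex, and the other 12 are free. Mitochondrial synthetases are made from separate nuclear genes for most amino acids and serve the few proteins encoded by mitochondrial DNA. When amino acids run short or proteins misfold, the transcription factor ATF4 is translated and binds elements of the form TGATGNAA in genes for amino acid synthesis, amino acid import and tRNA charging.

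Values are FPKM, which count fragments relative to transcript length and to a measure of library size. Levels can thus be set side by side between genes. The summed FPKM of a library ran from 217205 to 1400108. Factors that would bring the libraries to a common median ratio over genes ran from 0.92 to 1.09. Which measure of library size the deposited values rest on is not known here. Read depth is unknown, so no counting error is given. Changes are differences of log2(FPKM + 1), which understate the change of low genes. A call means a Benjamini-Hochberg adjusted p under 0.05 in limma over all genes tested, and a gene was tested if it had at least 1 FPKM in at least 3 libraries. As a check of the scaling, each library was also divided by its FPKM total over all genes but those for digestive enzymes and Reg proteins, here called the enzyme-free rescaling. Member counts under it are given without the share of all genes called under it. Saline and 24 h libraries were made with an earlier preparation guide (10 PCR cycles) and 8 h and 48 h libraries with a later one (8 cycles), except that WT saline replicate 3 is in neither list of names and its guide is unknown. In 8 h or 48 h against saline, guide and time therefore cannot be told apart, while 24 h against saline, 48 h against 8 h and every HET against WT comparison stay within a guide, that library aside. Of the 15 acinar markers, Cpa1, Cela1, Cela2a, Prss2, Cel, Pnlip and Amy2a5 were listed at 0 in all libraries of both saline groups and both 8 h groups, and Amy2a5 in all groups. Summed acinar markers were 121152 to 188886 FPKM in WT saline and 27841 to 51951 at WT 8 h, and 102903 to 188525 and 28676 to 32178 in HET. Summed macrophage markers (10 found of 11, all above 0) were 63.8 to 165 FPKM in WT saline and 133 to 243 at WT 8 h. In HET they were 194 to 430 and 334 to 436 FPKM, and the ranges overlapped in both genotypes. The part of macrophages and of acinar cells in the 8 h changes was not tested.

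In the pancreas of saline-treated WT mice the cytosolic genes were the abundant ones, with a single mitochondrial exception. Lars2, the mitochondrial leucyl-tRNA synthetase, on chromosome 9, had the highest mean of all 36, 103 ± 46.9 FPKM (SD, n = 3). Whether all fragments counted for Lars2 came from its own mRNA was not tested. Next came the cytosolic Wars (tryptophan, 72.8 ± 26.4), Sars (serine, 68.4 ± 12.5), Mars (methionine, 56.9 ± 8.6), Nars (asparagine, 51.7 ± 5.69) and Gars (glycine, 49.4 ± 6.61). Ranks 2 to 20 were all cytosolic. The lowest cytosolic gene was Farsa, the alpha subunit of the phenylalanine enzyme, at 8.39 ± 1.53 FPKM and rank 22, just under the mitochondrial Yars2 at 9.52 ± 2.94. Neighbours in this order were hard to part: the ranges of the 3 libraries overlapped for 33 of the 35 neighbouring pairs. The exceptions were Kars over Cars and Ears2 over Sars2.

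Setting each cytosolic gene beside the mitochondrial gene for the same amino acid gave 16 pairs, in which Farsa and Farsb shared Fars2 and Eprs (glutamate and proline) was set beside Ears2. The cytosolic level was higher in all 24 libraries in 13 pairs. In WT saline the ratio of means ran from 1.34 for Farsa over Fars2 to 109 for Wars over Wars2. Leucine was the exception, with Lars at 12.5 ± 1.47 FPKM and Lars2 above it in all 24 libraries. Farsa exceeded Fars2 in 23 libraries and Yars exceeded Yars2 in 22. At the bottom of the order were Wars2, Pars2, Mars2 and Aars2, with means of 0.666 to 0.817 FPKM in WT saline. Pars2 ranged from 0.0536 to 0.78 FPKM over the 24 libraries and was described no further.

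Caerulein at 8 h was accompanied by a broad rise of the cytosolic genes. In WT, 14 of 20 cytosolic members rose and none fell, with a median log2 change of 0.87. Over all 12858 genes tested 51.0% were called, 28.2% higher and 22.8% lower, and the median change was 0.05. Among the 15 mitochondrial members tested 4 rose and 2 fell, with a median of 0.13. HET mice gave the same 14 cytosolic risers, with a median of 0.98 and none lower, against 55.2% of all genes called, 30.7% higher and 24.5% lower. In HET, 3 mitochondrial members rose and 2 fell, with a median of 0.03. The calls shared in direction by both genotypes numbered 18, which is 90.0% of the 20 in WT and 94.7% of the 19 in HET. The matching share over all genes was not worked out, so this sharing is not read as particular to the members.

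**Figure D1:**
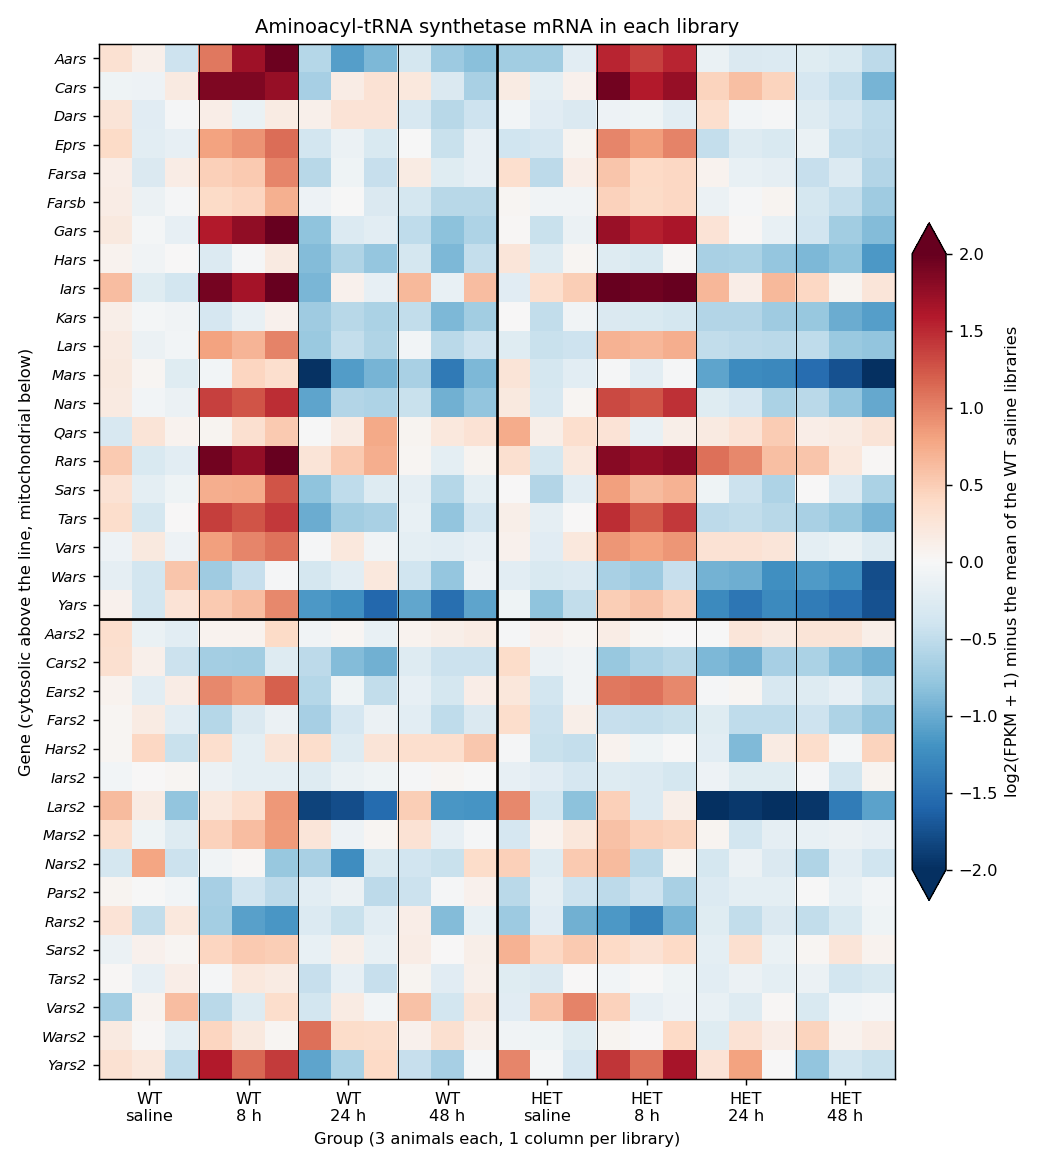
Each column is a library, each row a gene, and colour gives log2(FPKM + 1) minus the mean of the WT saline libraries, clipped at 2 in either direction. The red block at 8 h covers 14 of the 20 cytosolic rows in both genotypes, while most of the mitochondrial rows below the line stay pale.

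Gars, which charges glycine in both the cytosol and the mitochondria from a single gene on chromosome 6, had the smallest adjusted p among the members in both genotypes. Its levels were 56.6, 48.0 and 43.6 FPKM in WT saline and 150, 171 and 202 FPKM at WT 8 h. The groups did not overlap, and the log2 change was 1.8 ± 0.18 (SE; limma adjusted p = 7.95e-08). In HET, Gars went from 49.8, 35.7 and 45.2 to 164, 146 and 155 FPKM (log2 change 1.82 ± 0.18, limma adjusted p = 6.04e-08). Nars, the asparaginyl enzyme, stood at 58.2, 49.5 and 47.5 FPKM in WT saline and at 134, 125 and 145 at 8 h, again with no overlap (1.37 ± 0.17 on the log2 scale). HET values of Nars were 59.2, 41.2 and 53.0 FPKM in saline and 130, 124 and 143 at 8 h.

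Cars, which charges cysteine, gave 25.8, 25.6 and 31.2 FPKM in WT saline and 103, 103 and 94.5 at 8 h. This was a log2 change of 1.83 ± 0.22, with every 8 h library above every saline library. In HET the Cars values were 30.8, 23.8 and 29.3, then 107, 84.1 and 94.5 FPKM. Aars, the alanyl enzyme, went from 31.7, 27.5 and 19.0 to 54.3, 84.6 and 102 FPKM in WT, a log2 change of 1.57 ± 0.22. In HET it went from 15.4, 15.4 and 21.9 to 74.9, 67.2 and 75.6 FPKM, a log2 change of 2.0 ± 0.22. Aars shares 1326 exon bases with Exosc6 on the same strand in GENCODE M21, 23.1% of its exon length, so its level is uncertain.

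The highest log2 changes at WT 8 h belonged to Iars (isoleucine, 1.92 ± 0.29) and Rars (arginine, 1.91 ± 0.21), both members of the multisynthetase complex. Tars (threonine), Vars (valine), Eprs, Sars and Lars rose by 0.82 to 1.35. Yars, the tyrosyl enzyme, rose less: 40.7, 29.3 and 46.5 FPKM in WT saline and 55.4, 59.3 and 75.3 at 8 h (0.70 ± 0.19). HET values of Yars were 35.7, 21.3 and 26.7, then 54.2, 56.9 and 52.6 FPKM. The subunits of the phenylalanine enzyme, Farsa and Farsb, had the lowest changes of the 14 in WT, at 0.66 ± 0.20 and 0.51 ± 0.12. Farsa was no longer called in WT without WT saline replicate 2 or WT 8 h replicate 3 (highest adjusted p 0.0620), and its HET call was lost without HET saline replicate 2 or any HET 8 h library (highest adjusted p 0.335).

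The 6 cytosolic members that did not pass at 8 h were the same in both genotypes. They were Dars (aspartate), Hars (histidine), Kars (lysine), Mars, Qars (glutamine) and Wars. In WT their log2 changes lay between -0.40 for Wars and 0.30 for Qars. Dars, Kars, Mars and Qars belong to the multisynthetase complex, of which 4 of 8 members rose, against 10 of the 12 free enzymes. By the fold of the catalytic domain, 7 of 10 class I and 7 of 10 class II cytosolic members rose. The enzyme-free rescaling left 16 risers and 2 fallers in WT, all called before, with Farsb and Sars2 lost.

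**Figure D2:**
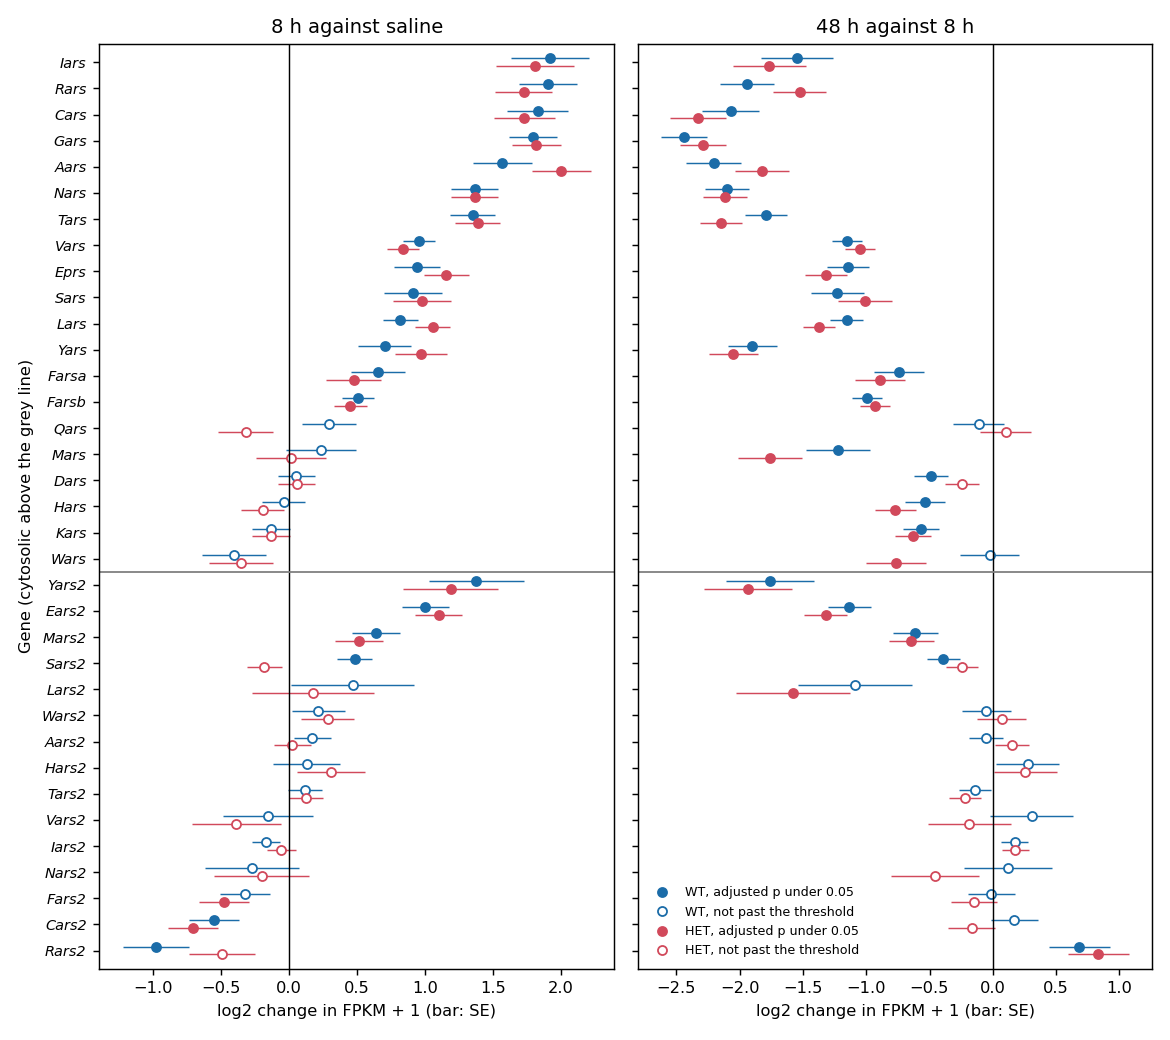
Points give each member's log2 change in FPKM + 1 with its SE, for 8 h against saline (left) and 48 h against 8 h (right), in WT (blue) and HET (red), with filled points for limma adjusted p under 0.05. Cytosolic genes above the grey line reach 2.0 on the left and -2.44 on the right, and the 6 that did not pass at 8 h lie between -0.40 and 0.30 in WT on the left.

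The mitochondrial risers in WT at 8 h are named because they were few, after their values were seen: Yars2, Ears2, Mars2 and Sars2. Yars2, the mitochondrial tyrosyl enzyme, had the largest change, from 11.6, 10.8 and 6.15 FPKM to 29.7, 21.7 and 25.8 (log2 change 1.38 ± 0.35, limma adjusted p = 0.00252). In HET, Yars2 was at 19.1, 8.97 and 7.12 FPKM in saline and at 26.5, 21 and 31.1 at 8 h. Ears2 rose by 1.00 ± 0.17 in WT and 1.10 ± 0.17 in HET, and Mars2, at 1.67 FPKM or less in its group means, by 0.64 ± 0.18 and 0.52 ± 0.18. The HET call of Mars2 was lost without HET saline replicate 1 or HET 8 h replicate 1 (highest adjusted p 0.116).

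Rars2, the mitochondrial arginyl enzyme, moved the other way from its cytosolic partner. Its values were 8.40, 4.52 and 8.02 FPKM in WT saline and 3.83, 2.64 and 2.48 at 8 h, with no overlap (log2 change -0.98 ± 0.24, limma adjusted p = 0.00211). In HET, Rars2 was at 3.69, 5.67 and 2.99 FPKM in saline and at 2.52, 2.12 and 3.08 at 8 h, which overlap (adjusted p = 0.0925). Cars2 (cysteine) was the other faller in WT, at -0.55 ± 0.19, a call lost without WT saline replicate 1 or 2 or WT 8 h replicate 1 or 2 (highest adjusted p 0.111). Cars2 fell by 0.70 in HET, where Fars2 was also called lower at -0.47 ± 0.18, a call lost without any one of HET saline replicates 1 and 3 and the HET 8 h libraries (highest adjusted p 0.189).

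Pair by pair, the cytosolic gene alone rose in 10 of 16 pairs at WT 8 h, both genes rose in 3 (glutamate, serine, tyrosine), and the mitochondrial gene alone in 1 (methionine). The cytosolic change was the larger in 11 of 16 pairs, with a median difference of 0.91 in log2 units, and in 12 of 16 pairs in HET (median 1.05). With the added 1 FPKM, the change of the lower gene of a pair, mostly the mitochondrial one, is understated more. The size of that part in these differences was not tested. A value that depends on the scaling between libraries only through the pseudocount is the difference, within a library, between the median log2(FPKM + 1) of the 20 cytosolic and of the 16 mitochondrial genes. That difference was 2.17 to 2.76 in WT saline and 3.50 to 3.71 at WT 8 h. It was 2.22 to 2.32 at WT 24 h and 1.83 to 2.05 at WT 48 h. In HET it was 2.41 to 2.49, 3.35 to 3.63, 2.52 to 2.86 and 1.94 to 2.56 in the same order. The 8 h libraries of both genotypes stood above all others, those at 48 h, of the same preparation guide, included.

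**Figure D3:**
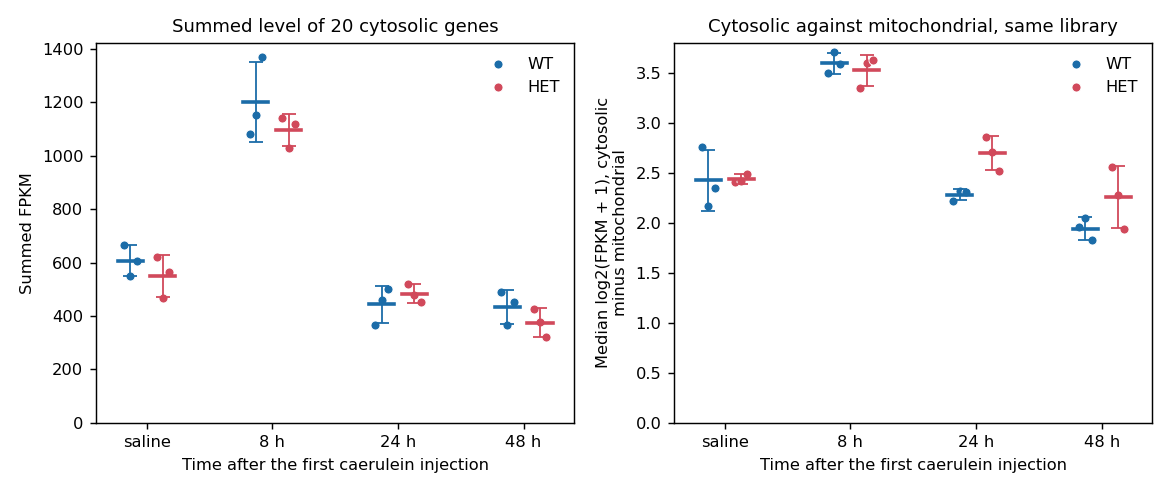
Left, the summed FPKM of the 20 cytosolic genes in each library; right, the median log2(FPKM + 1) of the cytosolic genes minus that of the 16 mitochondrial genes in the same library. Points are libraries, long lines means and bars 1 SD (n = 3); the 8 h sums (1030 to 1371) lie above all the others (321 to 667).

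Promoter sequence was examined because the cytosolic risers moved together. Windows from 250 bases before to 50 after the RefSeq start site (GRCm38.p6) were used for 27 of the 36 members, 13 cytosolic and 14 mitochondrial. The other members had no window or lay on a chromosome whose windows were left out by choice. That chromosome was not left out of the count over all genes. TGATGNAA, the C/EBP-ATF element bound by ATF4, searched on both strands, occurred in the windows of 5 of the 13 cytosolic members (Aars, Gars, Iars, Tars and Yars) and 0 of the 14 mitochondrial members. All 5 rose at 8 h. They were 5 of the 9 cytosolic risers whose window was used. The element occurred in 0 of the 4 cytosolic members that did not pass and whose window was used. Among 27025 genes with such a window 4.51% held the element. CACGTG, the E-box, read the same on both strands, was present in 4 cytosolic members (Aars, Farsb, Iars and Tars) and 1 mitochondrial member (Ears2), against 8.09% of all genes. A match is a string of letters and does not show that a factor binds there.

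The stretches before the start site that hold the element are shown for 3 of the risers, with the matched letters in capitals and the gene's own strand read 5′ to 3′. The stretch of Aars is at chr8:111033704-111033763 on the plus strand, that of Gars at chr6:55037945-55038000 on the plus strand and that of Tars at chr15:11399659-11399699 on the minus strand, all in GRCm38.p6. The capitals read as the reverse complement of TGATGNAA, and begin 112, 30 and 15 bases before the start site.
Aars: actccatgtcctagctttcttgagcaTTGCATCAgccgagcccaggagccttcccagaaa
Gars: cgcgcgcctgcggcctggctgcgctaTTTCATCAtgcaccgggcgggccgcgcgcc
Tars: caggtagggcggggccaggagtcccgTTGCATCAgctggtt
In Iars and Yars, and at a second place in Aars, the match lies in the first bases after the start site and is not shown.

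Genes of the amino acid response, a list of 28 ATF4-linked genes, stood beside the synthetases at 8 h. In WT 25 of 28 rose and 0 fell, with a median log2 change of 1.82, and in HET 24 rose and 0 fell, with a median of 1.84. Of all genes, 28.2% were higher and 22.8% lower in WT, and 30.7% and 24.5% in HET. This list was chosen with earlier results of these data known. Atf5, Aldh18a1 and Pycr1 did not pass in WT. The 4 with the smallest adjusted p in WT were Atf3, a stress-induced transcription factor (1.28 to 266 FPKM, group means), Slc7a11, the cystine importer (0.815 to 18.1), Sesn2, a leucine-sensing inhibitor of mTORC1 (1.66 to 36.9), and Cebpb, a partner of ATF4 (3.21 to 73.9). Atf4 itself stood at 152, 79.1 and 102 FPKM in WT saline and at 380, 382 and 413 at 8 h. In HET, Atf4 was at 140, 89.2 and 106 FPKM, then at 382, 334 and 373.

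Partners of the cytosolic enzymes, a list of 11, did not move as a block: 4 rose and 5 fell in WT at 8 h, with a median of -0.32. The shares of all genes there were 28.2% higher and 22.8% lower. The risers were Ppa1, a pyrophosphatase that clears a product of the charging reaction (log2 change 1.59), Xpot, the tRNA exporter (0.94), and the multisynthetase scaffold proteins Aimp2 (0.85) and Eef1e1 (0.82). The scaffold protein Aimp1 was at -0.32 and did not pass. Dtd1, which removes D-amino acids from tRNA, fell by 1.42, the largest of the 5 falls, with Tarsl2, Sepsecs, Pstk and Aarsd1 the others. Of the 9 mitochondrial partners, 8 were matched in the table, of which Qrsl1, a subunit of the enzyme that makes glutaminyl-tRNA in mitochondria, rose by 0.64. Gatc, another subunit of that enzyme, fell by 0.69, and the elongation factor Tufm fell by 0.34.

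From 8 to 48 h, a comparison within a preparation guide, the cytosolic genes came down. In WT 18 of 20 fell and none rose, with a median log2 change of -1.19, where 50.0% of all genes were called, 27.4% lower and 22.5% higher, and the median was 0.01. The mitochondrial members gave 4 fallers (Ears2, Mars2, Sars2 and Yars2, the 4 that had risen) and 1 riser (Rars2), with a median of -0.05. In HET 18 of 20 cytosolic members fell, with a median of -1.35, where 52.0% of all genes were called, 28.6% lower and 23.4% higher. There the mitochondrial Lars2, Yars2, Ears2 and Mars2 fell and Rars2 rose. The 21 calls common to both genotypes were 91.3% of the 23 in each, and here too the share over all genes was not worked out.

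Gars had the largest fall in WT, to 34.4, 27.4 and 31.8 FPKM at 48 h (log2 change from 8 h -2.44 ± 0.18, limma adjusted p = 1.56e-09), and reached 37.3, 29.8 and 26.5 FPKM in HET. Aars came to 19.7, 15.1 and 13.9 FPKM in WT (-2.21 ± 0.22) and 21.5, 20.5 and 17.5 in HET. Nars came to 37.4, 25.9 and 29.5 FPKM in WT (-2.10 ± 0.17) and 35.1, 29.8 and 24.9 in HET. In these 3 genes no 48 h library of either genotype reached the level of any 8 h library. Cars came to 32.0, 22.2 and 17.2 FPKM in WT (-2.07 ± 0.22) and 21.5, 19.5 and 14 in HET. Rars2 rose again in WT, to 7.49, 3.27 and 6.01 FPKM, which overlaps with the 8 h values (0.68 ± 0.24). This call was lost without WT 8 h replicate 2 or 3 or WT 48 h replicate 1 or 3 (highest adjusted p 0.138). In HET, Rars2 was at 4.52, 5.30 and 6.30 FPKM at 48 h, above all the HET 8 h libraries.

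**Figure D4:**
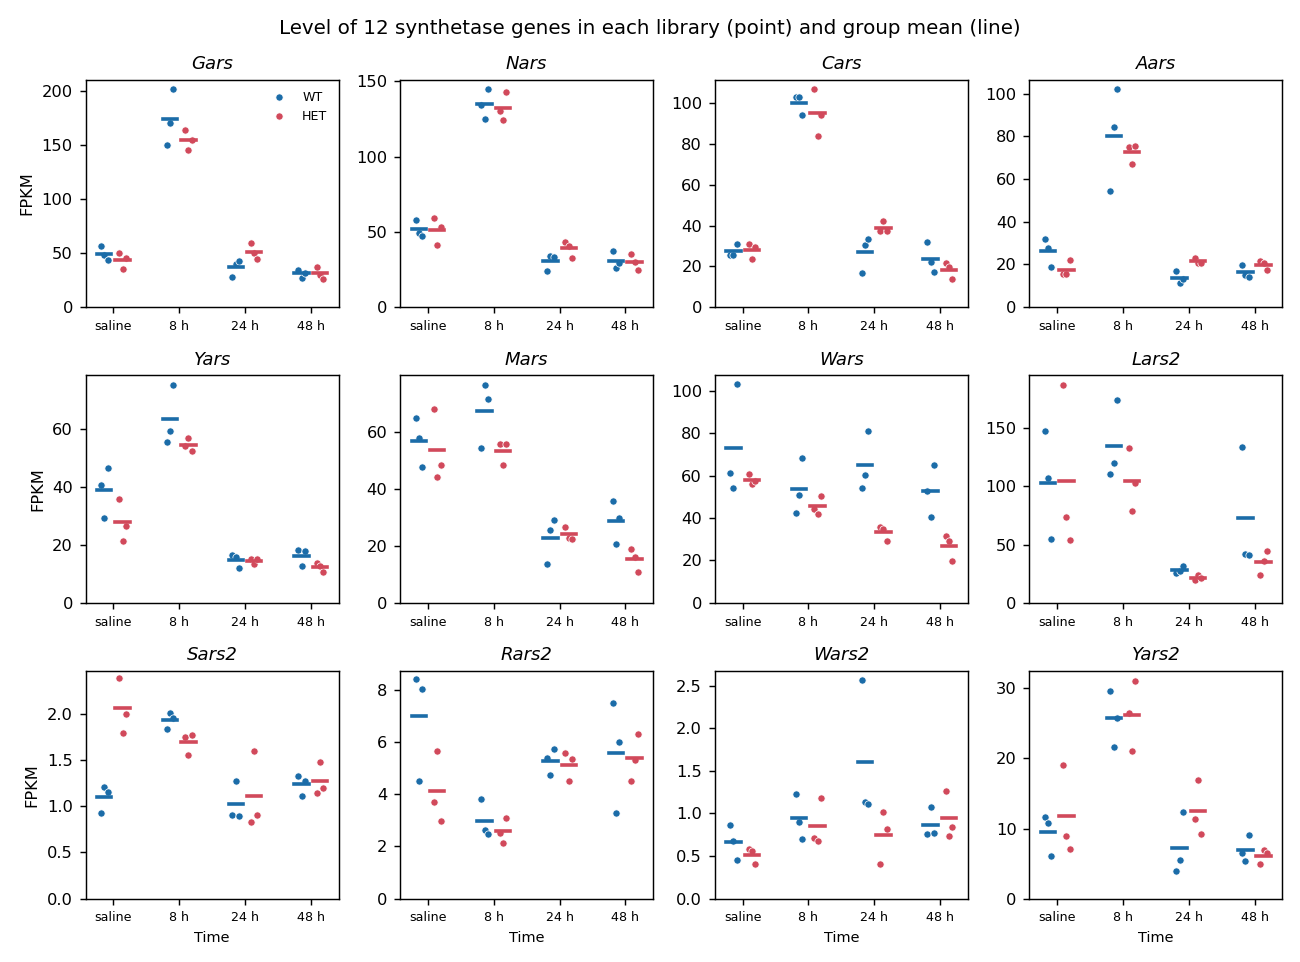
FPKM of 12 synthetase genes in each library (points) with group means (lines), by time, in WT (blue) and HET (red), each panel on its own scale from 0. Gars, Nars, Cars and Aars peak at 8 h in both genotypes, Wars in HET lies below WT at 24 and 48 h, and Sars2 in saline is higher in HET.

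The enzyme-free rescaling changed the count of fallers in this comparison. It moved the median of all genes to 0.46 in WT and 0.69 in HET, where the deposited scaling gave 0.01 and -0.03. Under it 5 members were higher and 13 lower in WT, and 10 higher and 12 lower in HET, in place of 1 and 22 in each. Without the share of all genes called under it, these counts do not tell the members from a shift of all genes. The cytosolic medians were then -0.55 and -0.41, still below those of all genes. The amino acid response list gave 27 of 28 lower in both genotypes with the deposited scaling, with medians of -2.60 and -2.99. Of all genes, 27.4% were lower and 22.5% higher in WT under that scaling, and 28.6% and 23.4% in HET. Among the 11 cytosolic partners 4 fell in WT, the same 4 that had risen at 8 h, led by Ppa1 (-2.39), and 3 rose.

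At 24 h, compared with saline within a guide, the cytosolic rise was largely gone with the deposited scaling. The within-library difference between cytosolic and mitochondrial medians was still above saline in HET, at 2.52 to 2.86 against 2.41 to 2.49. In WT that difference lay within the saline range (2.22 to 2.32 against 2.17 to 2.76). With the deposited scaling none of the 20 rose in WT and 8 fell, a split that turned under the enzyme-free rescaling (12 members of 35 higher, 1 lower), and the median was -0.40, where 39.2% of all genes were called, 18.7% lower and 20.5% higher, and the median was 0.05. Among the mitochondrial members Lars2, Cars2 and Tars2 fell and Wars2 rose. In HET, 6 cytosolic members fell and Rars rose (0.82 ± 0.21), and the mitochondrial Lars2, Cars2 and Sars2 fell, where 43.8% of all genes were called, 19.8% lower and 23.9% higher. With the enzyme-free rescaling 25 members were higher and 1 lower in HET, and the medians of all genes were 0.67 and 0.84, against 0.05 and 0.06 with the deposited scaling. The cytosolic medians were then 0.46 in WT, below all genes, and 1.00 in HET, above them. Shares of all genes called under the rescaling are not given beside these counts.

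Mars and Yars had the largest cytosolic falls at WT 24 h with the deposited scaling. Mars, which also supplies initiator methionine, was at 64.9, 58.0 and 47.8 FPKM in WT saline and at 13.6, 25.5 and 29.2 at 24 h (log2 change -1.34 ± 0.25, limma adjusted p = 0.000404). Yars was at 16.7, 15.8 and 12.2 FPKM at WT 24 h (-1.31 ± 0.19, limma adjusted p = 3.65e-05) and at 15.2, 13.3 and 15.2 in HET. Aars was at 16.8, 11.3 and 13.3 FPKM at WT 24 h, below all 3 saline libraries (-0.86 ± 0.22). Under the enzyme-free rescaling, none of the Mars, Yars and Aars calls in WT was kept, and Aars changed sign (0.022). Beside these changes, from saline to 24 h in WT, summed acinar markers went from 121152 to 188886 FPKM down to 50893 to 59228. Over that interval the macrophage markers went from 63.8 to 165 FPKM up to 519 to 890, and the 10 fibroblast and stellate cell markers from 221 to 302 up to 529 to 997. The part of these cells in the 24 h changes was not tested.

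Other 24 h values of genes named above were as follows. Gars was at 27.8, 40.3 and 42.4 FPKM in WT and 59.9, 49.9 and 44.2 in HET, and Nars at 24.2, 34 and 33.4 in WT and 43.5, 40.5 and 32.9 in HET. Cars was at 16.9, 30.5 and 33.6 FPKM in WT and 37.5, 42.1 and 37.5 in HET. Of these only Nars was called against saline, in WT (-0.75 ± 0.17). Rars2 was at 5.39, 4.73 and 5.72 FPKM in WT and 5.57, 4.50 and 5.34 in HET, and neither was called.

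Lars2 had the largest fall of any member at WT 24 h with the deposited scaling. It was at 148, 107 and 54.5 FPKM in WT saline and at 25.7, 27.3 and 32.1 at 24 h, with no overlap (log2 change -1.72 ± 0.45, limma adjusted p = 0.00522). In HET the saline values were 187, 73.4 and 53.8 FPKM and the 24 h values 19.5, 24.2 and 21.4 (-2.02 ± 0.45). Under the enzyme-free rescaling both falls stayed called but were smaller, at -0.81 in WT and -0.89 in HET. The 8 h values were 111, 120 and 174 FPKM for WT against 133, 78.9 and 103 for HET, with overlap. The 48 h values were 134, 42.2 and 41.3 FPKM for WT against 23.9, 35.6 and 44.8 for HET, where 1 WT library stood apart. Lars2 varied widely between mice of a group, with the highest saline library 2.72 times the lowest in WT and 3.48 times in HET. In 5 of the 8 groups the library with most Lars2 was also the library with the highest summed FPKM over all genes. The part of library totals in its level was not tested, nor was the source of the fragments counted for it.

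Wars2, the mitochondrial tryptophanyl enzyme, was the only member to rise at WT 24 h under the deposited scaling. It went from 0.867, 0.676 and 0.454 FPKM in saline to 2.56, 1.13 and 1.11 (log2 change 0.60 ± 0.19, limma adjusted p = 0.0186). The first of those libraries stood apart, and the call was lost without WT 24 h replicate 1 or without WT saline replicate 3 (highest adjusted p 0.146). In HET, Wars2 was at 0.576, 0.556 and 0.408 FPKM in saline and 0.401, 1.02 and 0.812 at 24 h. The 8 h levels were 1.23, 0.896 and 0.694 FPKM for WT against 0.716, 0.673 and 1.18 for HET, and the 48 h levels 0.753, 1.08 and 0.770 against 1.26, 0.739 and 0.845.

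At 48 h against saline, where guide and time cannot be told apart, 9 cytosolic members were lower in WT and none higher, with a median of -0.43. No mitochondrial member was called in WT, and 25.3% of all genes were called, 13.5% lower and 11.8% higher. In HET 10 cytosolic and 4 mitochondrial members (Lars2, Cars2, Fars2 and Sars2) were lower and none higher, where 44.2% of all genes were called, 24.2% higher and the rest lower. Without WT 48 h replicate 2 the WT count was 4. Yars was at 18.1, 12.8 and 17.9 FPKM in WT and 13.9, 12.8 and 10.7 in HET, below every saline library of its genotype. Neither Yars call was kept under the enzyme-free rescaling (-0.60, adjusted p = 0.0553 in limma, and -0.021, adjusted p = 0.942 in limma). Under the enzyme-free rescaling the split was 3 higher and 0 lower in WT, with a median of all genes of 0.43, and 19 higher and 1 lower in HET, with a median of 0.85. Again the share of all genes called under it is not given.

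Few members were called between the genotypes. At 8 h none of the 35 was called, and none had an unadjusted p under 0.05 in limma, where 0.218% of all genes were called, 0.171% higher and 0.0467% lower. The log2 differences of the 35 members lay between -0.36 and 0.32, and those of the cytosolic members between -0.32 and 0.08. In saline 1 member was called, Sars2, where 2.36% of all genes were called, 1.15% higher and 1.21% lower. At 24 h 1 member was called, Wars, where 6.50% of all genes were called, 3.50% higher and the rest lower. At 48 h Mars and Wars were called, where 12.2% of all genes were called, 5.85% higher and 6.37% lower. With the enzyme-free rescaling neither Wars nor Mars was called. In their place Aars, Gars and Yars2 were higher in HET at 24 h and Aars and Rars at 48 h, named after their values were seen, with medians of all genes of 0.19 and 0.42. With the deposited scaling the members' shares were near or under those of all genes.

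Wars, the tryptophanyl-tRNA synthetase, on chromosome 12 and known to be induced by interferon gamma, was lower in HET at both later times. At 24 h it was at 54.3, 60.1 and 81.2 FPKM in WT and 35.9, 35.0 and 29.2 in HET, with no overlap (log2 difference -0.93 ± 0.24, limma adjusted p = 0.0231). At 48 h it was at 52.9, 40.5 and 64.8 FPKM in WT and 31.4, 29.2 and 19.8 in HET, again with no overlap (-0.95 ± 0.24, limma adjusted p = 0.0131). Saline values were 61.3, 54.0 and 103 FPKM in WT against 60.5, 56.2 and 57.6 in HET, the 8 h values 42.3, 50.6 and 68.4 against 44.4, 41.7 and 50.3, and at both the ranges overlapped. In WT the log2 change of Wars from saline was -0.40 at 8 h, -0.12 at 24 h and -0.43 at 48 h, none of them called. In HET it was called lower than saline at 24 h (-0.79 ± 0.24) and 48 h (-1.11 ± 0.24), and under the enzyme-free rescaling neither call was kept (0.34, adjusted p = 0.342 in limma, and -0.027, adjusted p = 0.945 in limma).

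The difference between the genotypes in these changes was not called: it was -0.67 ± 0.33 for 24 h against saline (adjusted p = 0.306, limma) and -0.74 ± 0.33 for 48 h against 8 h (adjusted p = 0.358, limma). The 24 h call of Wars was lost without any library of the 2 groups but WT 24 h replicate 1, with log2 differences of -1.05 to -0.76 and adjusted p up to 0.0873. The 48 h call was lost without WT 48 h replicate 1 or 3 or HET 48 h replicate 3, with differences of -1.13 to -0.76 and adjusted p up to 0.101. Under the enzyme-free rescaling both calls ended (-0.69, adjusted p = 0.182, and -0.45, adjusted p = 0.264).

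Mars, on chromosome 10, was lower in HET at 48 h, at 18.9, 16.2 and 11 FPKM against 35.8, 20.6 and 29.7 in WT, with no overlap (log2 difference -0.86 ± 0.25, limma adjusted p = 0.0336). It was at 68.0, 44.2 and 48.4 FPKM in HET saline, and at 26.8, 22.9 and 22.6 in HET at 24 h. Its 8 h levels were 54.3, 76.6 and 71.5 FPKM for WT against 55.8, 48.5 and 55.8 for HET. The change of Mars at 8 h was not called in either genotype (0.24 ± 0.25 in WT and 0.02 ± 0.25 in HET, log2), and its lowest group mean was in HET at 48 h. The 48 h call was lost without WT 48 h replicate 1 or 3 or HET 48 h replicate 2 or 3 (differences -1.07 to -0.65, adjusted p up to 0.202), and under the enzyme-free rescaling (-0.37, adjusted p = 0.244). Without WT 48 h replicate 2, 5 members were called at 48 h, with Hars, Lars and Tars added. Mars shares 68 exon bases with Ddit3 on the other strand, 2.30% of its exon length.

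Acinar markers moved with these genotype differences. Summed over the 15 acinar genes, of which Cela1, Prss2 and Amy2a5 were listed at 0 in all 24 h libraries, they were 50893 to 59228 FPKM at WT 24 h, where Pnlip was also at 0, and 23882 to 26034 at HET 24 h. At 48 h they were 51432 to 125415 FPKM in WT, with Cela1, Cela2a and Amy2a5 at 0, and 2681 to 37832 in HET, with only Amy2a5 at 0. The 10 macrophage markers found, all above 0 in every library, summed to 519 to 890 FPKM at WT 24 h, 774 to 1213 at HET 24 h, 236 to 787 at WT 48 h and 731 to 1248 at HET 48 h. The 8 duct markers, of which 7 were above 0 in all HET 24 h libraries, summed to 432 to 733 FPKM at WT 24 h and 953 to 1050 at HET 24 h, with no overlap. The 6 endothelial markers, all above 0, summed to 25.3 to 27.8 FPKM at WT 48 h and 11.1 to 17.3 at HET 48 h, also with no overlap. The part of these cell types in the Wars and Mars values was not tested.

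Sars2, the mitochondrial seryl enzyme, on chromosome 7, was higher in HET than in WT in saline: 2.38, 1.79 and 2.0 FPKM against 0.929, 1.21 and 1.15, with no overlap (log2 difference 0.54 ± 0.13, limma adjusted p = 0.0327). At 8 h it was at 1.83, 2.01 and 1.95 FPKM in WT and 1.75, 1.55 and 1.77 in HET. Its 24 h levels were 0.898, 1.27 and 0.896 FPKM for WT against 0.832, 1.6 and 0.905 for HET, and its 48 h levels 1.33, 1.11 and 1.27 against 1.14, 1.48 and 1.20. At 8 h the order was turned, with every HET library below every WT library and no call, and at 24 and 48 h the groups overlapped. The saline call was lost without any library of the 2 groups but WT saline replicate 2 (differences 0.47 to 0.61, adjusted p up to 0.0985), and under the enzyme-free rescaling (0.48, adjusted p = 0.493). Summed adipocyte markers were 43.1 to 112 FPKM in WT saline and 255 to 589 in HET saline, and islet markers 2743 to 5219 and 971 to 1449. Macrophage markers were 63.8 to 165 and 194 to 430 FPKM, and fibroblast and stellate cell markers 221 to 302 and 393 to 741. The part of these cell types in the Sars2 value was not tested.

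Of the difference between genotypes in the response, no member was called either for 24 h against saline (2.31% of all genes called, 1.07% higher and 1.24% lower) or for 48 h against 8 h (0.723% of all genes called, 0.156% higher and 0.568% lower). At an unadjusted p under 0.05 in limma there were 4 members in the former and 1 in the latter. Aars came nearest: it fell by 0.86 in WT and stood 0.30 above saline in HET, a difference of 1.16 ± 0.31 (limma adjusted p = 0.0511). It was called in that comparison without WT saline replicate 3 or HET saline replicate 3, with a pseudocount of 0.1 and with a filter at 5 FPKM. In the amino acid response list, none of 28 was called between genotypes in saline or at 8 h. Of all genes, 2.36% were called in saline and 0.218% at 8 h. At 24 h 1 of the 28 was called, where 6.50% of all genes were called. It was Eif4ebp1, a repressor of translation initiation, higher in HET (log2 difference 0.76, limma adjusted p = 0.0360). At 48 h, with the deposited scaling, 6 of the 28 were lower in HET, and 1, Cebpb, was higher, where 12.2% of all genes were called, 6.37% lower and 5.85% higher. Summed acinar markers in that comparison were 51432 to 125415 FPKM in WT and 2681 to 37832 in HET, and their part in these differences was not tested. The 4 with the smallest adjusted p were Pycr1, of proline synthesis (-1.76), Slc7a5, a leucine importer (-0.92), Asns, asparagine synthetase (-1.25), and Cth, of cysteine synthesis (-1.15). Of the list, Pycr1 alone was called for the genotype difference in the change from 8 to 48 h (-1.65, limma adjusted p = 0.0493).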

How the data were processed

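RNA integrity numbers of the 24 pancreas samples were 6.6 to 9.2, per the labels' protocols. The authors deposited 1 table of FPKM per Ensembl gene. The tools were CASAVA 1.8, Bowtie, Cufflinks 2.0.2 and Cuffnorm, per the submitters' processing notes, which also name mouse build mm9 and give no roles or order. That the values are FPKM rests on Cuffnorm, as the header states none. Whether counting used strand is not given in the sources used here. Groups came from the labels, and replicate numbers are accession order.

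Testing covered genes that reached 1 FPKM in 3 or more libraries, on log2(FPKM + 1) with limma 3.58.1 (trend, robust) in R 4.3.3, with 1 mean for each of the 8 groups and 14 two-sided contrasts, each adjusted over all its genes. The script was tested on simulated data. A group at 0 in all libraries was treated as missing where some other group had 100 FPKM or more throughout, which touched 22 genes and no member. Across genes, libraries within a group had r = 0.8795 to 0.949. Tables and plots used Python 3.11.15, pandas 2.3.3, numpy 2.4.6 and matplotlib 3.10.9. Overlaps of gene models came from GENCODE M21 (GRCm38) and promoters from RefSeq (GRCm38.p6), of which no coordinate was joined to mm9.

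The members and the lists were chosen with earlier results of these data known. The list of enzyme and Reg genes behind the enzyme-free rescaling was written after values were seen. Members given in every library are those called in a genotype comparison or a difference of responses, and the 4 largest called changes in each direction at WT 24 h against saline and at WT 48 h against 8 h, 11 genes in all. Non-members are up to 4 of a list with the smallest adjusted p. Yars2, Atf4, Aimp1 and genes named because a count was 5 or fewer were added after their values were seen. Alternatives were other pseudocounts, filters, scalings and models, and leaving out each library.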

Additional observations from a re-analysis of the deposited data

Results flagged for a closer look

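Sars2 values went opposite ways at 8 h in the 2 genotypes. All 3 WT libraries at 8 h lay above all 3 WT saline libraries (log2 change 0.49), and all 3 HET libraries at 8 h lay below all 3 HET saline libraries (log2 change -0.18, adjusted p = 0.248 in limma). The difference between these changes was not tested. The means of these 4 groups lay between 1.10 and 2.06 FPKM.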

How the results depend on the processing

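No paired analysis was possible because the replicate numbers are only the order of accessions and nothing in the labels ties animals across groups. Of 222 alternative counts of members called, 192 were within 1.5 times the reported count. With 1 library left out at a time the counts ran from 0 to 1 for HET against WT in saline, 0 to 1 at 24 h, 0 to 5 at 48 h, 4 to 12 for WT 48 h against saline, and 0 to 1 for the difference between genotypes at 24 h. The saline genotype count was 0 with a filter at 5 FPKM, with the enzyme-free rescaling, and with the spread taken only from the groups compared. That spread gave 0 in place of 1 at 24 h, 0 in place of 2 at 48 h, 5 in place of 9 for WT 48 h against saline, and 8 in place of 14 for HET 48 h against saline. The genotype count at 48 h was 1 with no filter. The difference between genotypes at 24 h gave 1 with a pseudocount of 0.1 and 1 with a filter at 5 FPKM. The enzyme-free rescaling gave 3 for HET against WT at 24 h, 3 for WT 48 h against saline, and 26 for HET 24 h against saline. The cause was not tested.

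Of 134 called values, 107 stayed called with each library left out in turn, 62 under every alternative run, and 34 changed sign, all under that rescaling. For WT 24 h against saline these became 0.022 for Aars, 0.12 for Hars, 0.27 for Kars, 0.23 for Lars, 0.15 for Nars, 0.093 for Tars and 0.35 for Tars2. For WT 48 h against saline they became 0.14 for Dars, 0.076 for Farsb and 0.0069 for Hars. For WT 48 h against 8 h they became 0.12 for Dars, 0.086 for Hars, 0.073 for Kars and 0.015 for Sars2. For HET 24 h against saline they became 0.38 for Hars, 0.67 for Kars, 0.022 for Mars, 0.58 for Tars, 0.34 for Wars, 0.23 for Yars and 0.14 for Sars2. For HET 48 h against saline they became 0.47 for Cars, 0.53 for Farsb, 0.62 for Gars, 0.073 for Hars, 0.31 for Kars, 0.34 for Nars, 0.29 for Tars, 0.010 for Cars2, 0.31 for Fars2 and 0.26 for Sars2. For HET 48 h against 8 h they became 0.16 for Hars, 0.33 for Kars and 0.21 for Wars. Of these, 4 were called higher after the rescaling, namely Kars (adjusted p = 0.0049) and Tars (0.021) at HET 24 h and Farsb (0.0231) and Gars (0.014) at HET 48 h against saline, in limma. The 8 h rise against saline had no such change in either genotype. Depth is unknown, so for members near 1 FPKM, such as Wars2, Mars2 and Aars2, counting error cannot be stated.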
